A study of Rattus norvegicus with 4 samples.

Results

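The NF-κB subunits and feedback inhibitors were examined in rat primary Sertoli cells, which support the germ cells inside the seminiferous tubules. The group was named as 10 genes, of which 5 encode subunits (Rela, Relb, Rel, Nfkb1 and Nfkb2). The rest (Nfkbia, Nfkbib, Nfkbie, Nfkbiz and Tnfaip3) are counted here as inhibitors. Of the 10 genes, 7 were among the 13114 gene names of the mRNA table, namely 3 subunits and 4 inhibitors. The mRNA of Relb, Rel and Tnfaip3 was not analysed here. Cells were treated for 24 h with 4-nonylphenol (4-NP), an alkylphenol with estrogen-like activity, and control cells received none. Cells of both groups came from testes of Sprague-Dawley rat pups, 5 to 10 days old, and were enriched, passaged and grown in serum. There were 2 4-NP libraries and 2 control libraries, with 96.6 to 119 M mapped reads each. Whether each library stands for a culture of its own is not in the labels, and the p-values describe no more than the spread among these libraries.

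NF-κB is a family of dimeric transcription factors. In resting cells the IκB proteins hold the dimers in the cytoplasm, and signals from cytokine and toll-like receptors activate the IKK kinase complex, which marks IκB for degradation. The freed dimers enter the nucleus, where they induce inflammatory genes and also some of their own subunits and inhibitors, which closes a feedback loop. In rat testis, NF-κB is found in the nuclei of Sertoli cells. Of 13 listed Sertoli cell markers, 9 had a mean of at least 1 FPKM (fragments scaled to transcript length and library depth). Among them were Wt1, at 0.757 FPKM in 4-NP-treated cells and 3.58 FPKM in control cells, and Clu, at 14.6 FPKM in 4-NP-treated cells and 66.1 FPKM in control cells, while Sox9, Gata4 and Fshr were at most 0.464 FPKM in every library. The question here was whether the mRNA of these genes differed between 4-NP-treated and control cells.

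Inhibitor mRNA was higher in 4-NP-treated cells. Nfkbia, Nfkbib and Nfkbie, which encode the cytoplasmic inhibitors IκBα, IκBβ and IκBε, were 3.96-fold, 9.38-fold and 2.13-fold higher and passed the test. The subunit Rela was 1.44-fold higher and lay just outside the threshold, and Nfkb2 was high in 1 of the 2 4-NP libraries. Nfkb1 and Nfkbiz stayed below 1 FPKM in every library and were not tested. In such bulk samples fewer cells of a type and less RNA per cell cannot be told apart.

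**Figure D1:**
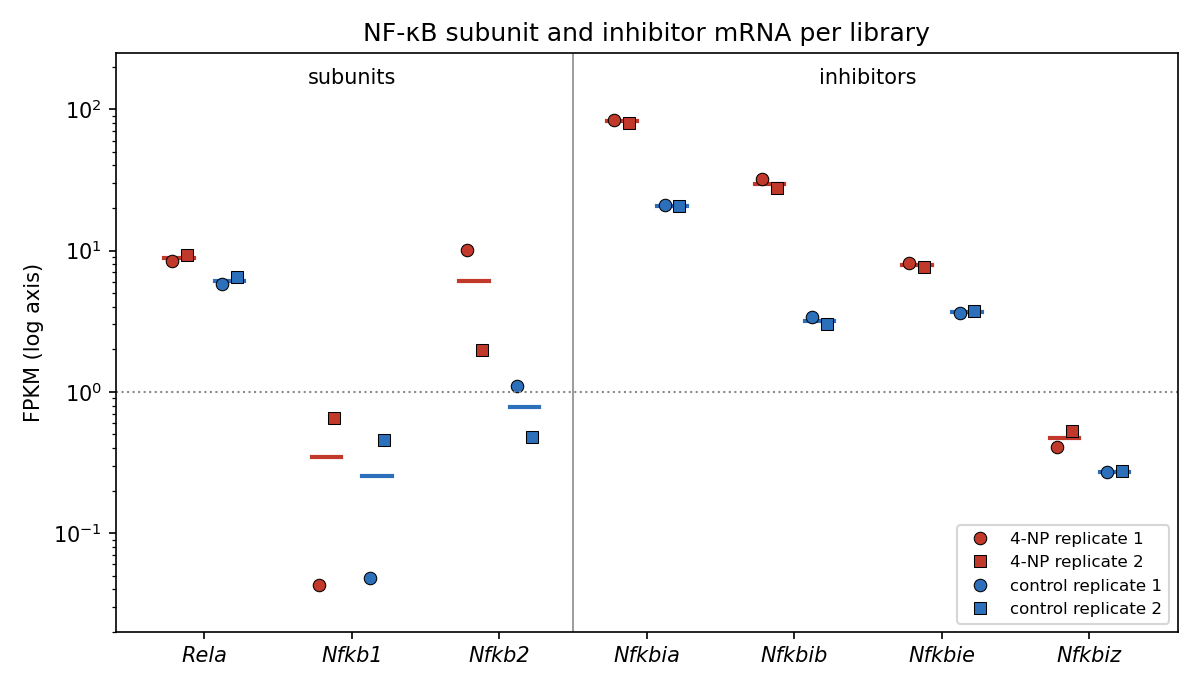
FPKM (log axis) of the 7 listed genes in each library, 4-NP in red and control in blue, with circles for replicate 1, squares for replicate 2 and bars for the group mean. Both 4-NP libraries lie above both controls for every gene shown except Nfkb1, whose values split by replicate number, and the dotted line marks 1 FPKM.

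Since NF-κB is known to act on promoters of its own family, the promoters of these genes were searched for its binding sequence. RefSeq promoters of the GRCr8 build, which run from 250 bases before to 50 bases after the start of the gene, were available for 9 of the 10 genes, Relb being the other. The consensus κB motif was searched on both strands, and overlapping matches were kept. It occurred in 7 of the 9 promoters (77.8%), against 2087 of 27457 RefSeq promoters (7.6%) and 621 of 6187 promoters of genes tested here (10.0%). Rela and Nfkbib had no match in this window. Among the other listed genes each promoter held 1 match, while Rel had 6 overlapping matches at 2 places and Tnfaip3 had 4 matches at 3 places. The stretches around the matches of the listed genes are shown on the strand of the gene, because their mRNA values follow, and the capitals mark the motif, which in Nfkbia is read on the opposite strand.
Nfkbia, chr6:78597084-78597113: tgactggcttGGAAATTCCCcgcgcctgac
Nfkbie, chr9:22948017-22948046: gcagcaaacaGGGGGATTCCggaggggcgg
Nfkb2, chr1:255108344-255108373: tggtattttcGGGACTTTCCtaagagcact
Nfkb1, chr2:226805440-226805469: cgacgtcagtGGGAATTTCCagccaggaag
Nfkbiz, chr11:58251698-58251727: tttttggcctGGGAATTTCCagcgtgtgga
Nfkb1 and Nfkbiz shared the same 10 bases, which also stand in Nfkbia on the opposite strand. The match began 31 bases before the start in Nfkbia, 164 in Nfkbie, 20 in Nfkb2 and 13 in Nfkbiz, and at base 4 of the transcript in Nfkb1. With the shorter motif GGGNTTTCC, 2 of the 9 promoters matched, Rel and Tnfaip3, against 1.58% of all RefSeq promoters. A match is a description of the letters and not a site of binding.

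**Figure D2:**
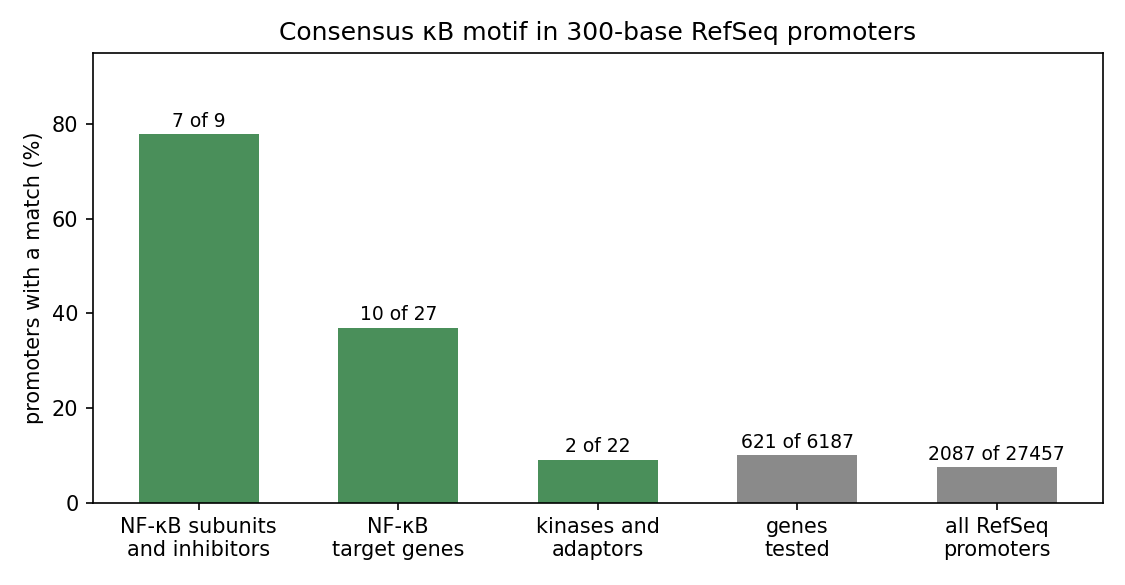
Share of RefSeq promoters (%) that held the consensus κB motif on either strand, with the number of promoters above each bar. The bar of the NF-κB subunits and inhibitors stands at 77.8%, against 37.0% for NF-κB target genes, 9.09% for kinases and adaptors, 10.0% for genes tested here and 7.6% for all RefSeq promoters.

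Nfkbia, the inhibitor best known as an NF-κB target, had the highest level of the group in every library. Its transcript has 6 exons and lies on chromosome 6 from 76267228 to 76270457 in the deposited table, which names no genome build. It was at 84.6 and 79.9 FPKM in 4-NP-treated cells, against 21.0 and 20.5 FPKM in control cells. The replicates of each group lay close together and the groups were far apart. The log2 change was 1.93 ± 0.07 on the log2(FPKM + 1) scale (SE, limma, adjusted p = 0.000866), and 2.41% of the 8012 tested genes had a higher one. In 4-NP-treated cells 7.03% of tested genes had a higher level than Nfkbia, against 23.8% in control cells.

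Nfkbib, which binds the same dimers but is known to be degraded and restored more slowly, changed by more. It was at 31.9 and 27.8 FPKM in 4-NP-treated cells and at 3.36 and 2.997 FPKM in control cells. The lower 4-NP library was 8.26-fold above the higher control, whereas for Nfkbia the highest of such ratios between single libraries was 4.12. The log2 change was 2.88 ± 0.12 (SE, limma, adjusted p = 0.00114), and 0.724% of tested genes had a higher one. Nfkbib thus moved to second place among the listed genes in both 4-NP libraries, while in both controls it stood behind Rela and Nfkbie. Its transcript, with 6 exons on chromosome 1 from 86941074 to 86948845, lay 72 bases from one of Sirt2, a deacetylase gene on the opposite strand that was named after its values were seen. Sirt2 was at 2.90 and 2.55 FPKM in 4-NP-treated cells and at 1.08 and 1.10 FPKM in control cells. No transcript of the deposited mRNA and lncRNA tables overlapped a transcript of the group.

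Nfkbie showed a smaller difference. It was at 8.12 and 7.63 FPKM in 4-NP-treated cells, against 3.64 and 3.76 FPKM in control cells, and the groups did not overlap. Its log2 change was 0.92 ± 0.12 (SE, limma, adjusted p = 0.0081). Without 4-NP replicate 1 it no longer passed, with an adjusted p of 0.0523. Nfkbiz, though counted here with the inhibitors, encodes a nuclear IκB protein that in mouse macrophages helps to induce genes such as Il6 and Lcn2. It was at 0.407 and 0.531 FPKM in 4-NP-treated cells and at 0.269 and 0.274 FPKM in control cells, and its mean was below the filter of 1 FPKM. The groups did not overlap, but 0.469 ± 0.0876 and 0.272 ± 0.00351 FPKM (SD, n = 2) are levels that 96.0% and 99.0% of tested genes exceeded. Without the filter its log2 change was 0.21 (limma, adjusted p = 0.125). In the deposited table Nfkbie lies on chromosome 9 from 17828408 to 17835240 and Nfkbiz on chromosome 11 from 47243342 to 47271487.

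Among the subunits, Rela encodes the main activating partner of the common dimer. It was at 8.36 and 9.23 FPKM in 4-NP-treated cells, against 5.77 and 6.50 FPKM in control cells. Both 4-NP libraries were above both controls. Its transcript of 11 exons lies on chromosome 1 from 220992770 to 221003249. The log2 change was 0.46 ± 0.13 (SE, limma, adjusted p = 0.0502). This value lay so near the threshold that the setting decided it, since the adjusted p ranged from 0.0343 to 0.0671 under the other settings with all libraries and was at least 0.105 when a library was left out. Rela is accordingly counted among the genes that did not pass.

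Nfkb2 encodes a precursor that is cut to the partner of Relb in the slower, noncanonical pathway. It was at 10.2 and 1.98 FPKM in 4-NP-treated cells and at 1.09 and 0.475 FPKM in control cells. The 4-NP libraries differed by 5.13-fold from each other, a gap that 4.93% of tested genes reached or exceeded, and the lower of them was 1.81-fold above the higher control. 4-NP replicate 1 thus stood apart from the other libraries. The transcript of 22 exons lies on chromosome 1 from 266053002 to 266059256. Nfkb2 reached the filter only through the 4-NP group. Its log2 change was 1.72 ± 0.73 (SE, limma, adjusted p = 0.135) and it did not pass. It passed without 4-NP replicate 2 (2.67, adjusted p = 0.0336), and the adjusted p was between 0.196 and 0.357 without any other library.

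Nfkb1 encodes the precursor of the usual partner of Rela. It was at 0.0432 and 0.649 FPKM in 4-NP-treated cells, against 0.0478 and 0.458 FPKM in control cells, so that the groups overlapped. In both groups replicate 2 was the higher, by 15.04-fold in 4-NP-treated cells and by 9.58-fold in control cells. Without the filter its log2 change was 0.09 (limma, adjusted p = 0.855). Read numbers per gene were not recovered from FPKM, and whether the low values of Nfkb1 are failed estimates of its transcript, which has 23 exons on chromosome 2 from 240773456 to 240866689, was not tested.

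**Figure D3:**
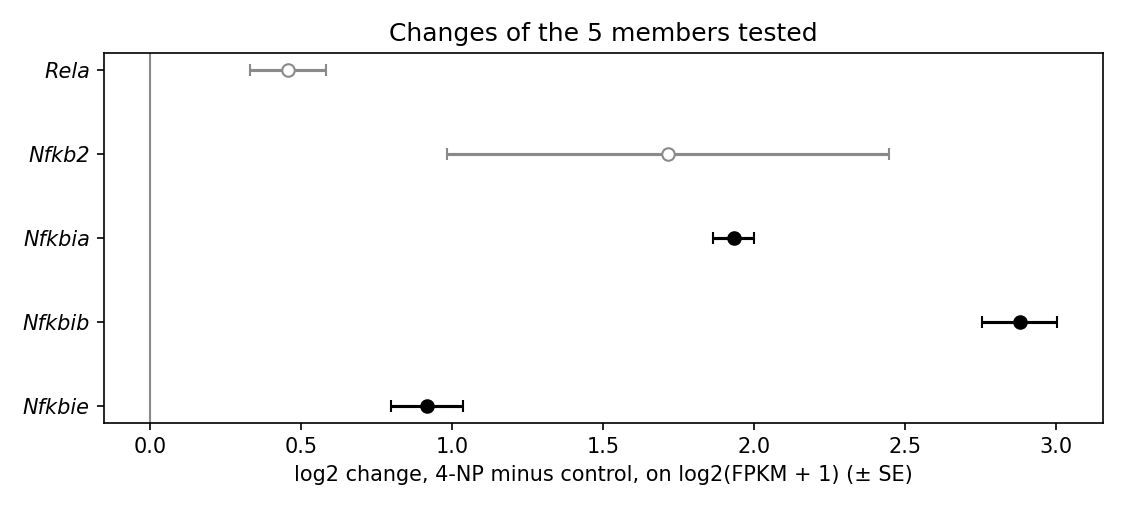
Log2 change on log2(FPKM + 1), 4-NP minus control, with its SE from limma for the 5 tested genes. Filled points passed an adjusted p of 0.05 (Nfkbia, Nfkbib and Nfkbie) and open points did not (Rela and Nfkb2).

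In all, 6 of the 7 listed genes had both 4-NP libraries above both controls, against 30.6% of the 13114 listed gene names and 40.1% of the tested ones. None had both below both controls, against 35.7% of the listed gene names and 36.3% of the tested ones. Of the 5 tested genes, 3 were called higher (limma, Benjamini-Hochberg adjusted p under 0.05), against 24.7% of the 8012 tested genes, and 0 were called lower, against 23.1% (47.8% in either direction). At an unadjusted p under 0.05, 4 were higher, against 29% of tested genes, and 0 were lower, against 26.5%. The study's rule, an unadjusted p under 0.05 with a log2 change beyond 1, was applied to the limma fit on log2(FPKM + 1). By it 2 were higher, against 11.4% of tested genes, and 0 were lower, against 15.2%. Nfkbie, 2.13-fold higher in mean FPKM, missed the rule at 0.92 on this scale.

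Because FPKM is scaled to transcript length, the levels of inhibitors and subunits can be set side by side. The 4 listed inhibitors summed to 125 and 116 FPKM in 4-NP-treated cells, against 28.3 and 27.6 FPKM in control cells. The 3 listed subunits summed to 18.6 and 11.9 FPKM in 4-NP-treated cells, against 6.91 and 7.43 FPKM in control cells, with Nfkb2 behind the gap between the 4-NP libraries. Inhibitor mRNA thus exceeded subunit mRNA by 6.73-fold and 9.76-fold in 4-NP-treated cells and by 4.10-fold and 3.71-fold in control cells. The levels of Relb, Rel and Tnfaip3 are not part of these sums, and protein was not measured. Nfkb1 added at most 0.649 FPKM to the subunit sum of any library, and whether its low values are failed estimates was not tested.

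Single inhibitors differed in how they moved against Rela. Nfkbia was at 10.1 and 8.65 times the level of Rela in 4-NP-treated cells, against 3.65 and 3.16 times in control cells. Nfkbib was at 3.81 and 3.01 times the level of Rela in 4-NP-treated cells, whereas it was below Rela in control cells, at 0.582 and 0.461 times. For Nfkbie these ratios were 0.971 and 0.826 in 4-NP-treated cells and 0.631 and 0.579 in control cells, so that it remained below Rela in every library. Nfkbia made up 58.9% and 62.6% of the summed FPKM of the group in 4-NP-treated cells and 59.7% and 58.7% in control cells, a share that overlapped between the groups. The share of Nfkbib was 22.2% and 21.7% in 4-NP-treated cells, against 9.54% and 8.56% in control cells. That of Rela was 5.83% and 7.23% in 4-NP-treated cells, against 16.4% and 18.6% in control cells.

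**Figure D4:**
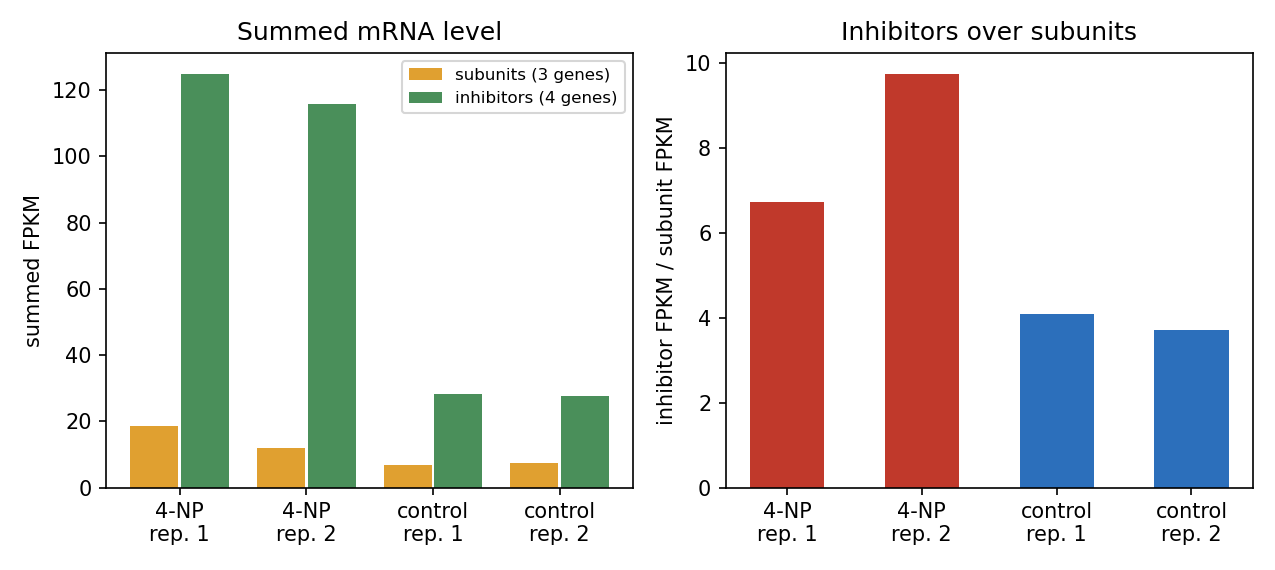
Summed FPKM of the 3 listed subunits and the 4 listed inhibitors in each library (left) and their ratio (right). Inhibitors sum to 125 and 116 FPKM in 4-NP-treated cells and to 28.3 and 27.6 FPKM in controls, and the ratio is highest in 4-NP replicate 2, at 9.76.

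Along the pathway, 13 receptors that activate NF-κB were listed. Of these, 10 were tested, and 5 were higher (50%, against 24.7% over all tested genes) and 2 were lower (20%, against 23.1%), with a median log2 change of 0.41 against 0.05 over all tested genes. Cd40, a receptor of the tumour necrosis factor family that feeds the noncanonical pathway, was at 4.41 ± 0.167 FPKM in 4-NP-treated cells and 0.248 ± 0.0954 FPKM in control cells (SD, n = 2). It reached the filter only through the 4-NP group. Tlr4, the receptor for bacterial lipopolysaccharide, rose 2.36-fold and Tnfrsf12a, the receptor of the cytokine TWEAK, 1.47-fold. Tnfrsf1a, the main receptor of tumour necrosis factor, fell to 8.87 ± 0.00471 FPKM in 4-NP-treated cells, against 18.8 ± 0.363 FPKM in control cells (SD, n = 2). The other receptor called lower was Ltbr, by 0.28 on the log2 scale. Il1r1 was at 2.71 and 0.818 FPKM in 4-NP-treated cells, against 25.4 and 4.14 FPKM in control cells. It did not pass (limma, adjusted p = 0.142). Without 4-NP replicate 1 there were 3 receptors higher, and without any 1 of the other libraries there were 2. Without control replicate 1 or either 4-NP replicate 1 receptor was lower.

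Among kinases and adaptors that carry the signal to IκB, most did not pass. Of 29 named genes 25 were listed and 21 tested. Of the tested genes 6 were higher (28.6%, near the 24.7% over all tested genes) and 1 was lower (4.76%, against 23.1%). The other 14 did not pass, and the median log2 change was 0.36. In the IKK complex, the kinase Chuk rose 1.49-fold (log2 change 0.53 ± 0.10, SE, limma, adjusted p = 0.0188) and the scaffold Ikbkg, named after its values were seen, 1.43-fold. The kinase Ikbkb, also named after its values were seen, was at 6.82 FPKM in 4-NP-treated cells and 4.95 FPKM in control cells (adjusted p = 0.123) and did not pass. Traf2, an adaptor of tumour necrosis factor receptors, rose 2.15-fold, Irak1, a kinase of toll-like receptor signaling, 1.43-fold and Birc2, a ubiquitin ligase, 1.29-fold. Tradd, another adaptor of tumour necrosis factor receptors, fell to 0.51 of its control level. These calls were not stable, since the number higher was 1 without either 4-NP library, 2 without control replicate 1 and 0 without control replicate 2. None was lower without 4-NP replicate 2 or control replicate 2.

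Of the other regulators of NF-κB, 13 of 19 listed genes were tested (median log2 change 0.38). Among them 3 were higher (23.1%, against 24.7% over all tested genes) and 2 were lower (15.4%, against 23.1%). Zc3h12a, an RNase that destroys cytokine mRNAs, was at 6.52 ± 0.766 FPKM in 4-NP-treated cells and 0.519 ± 0.234 FPKM in control cells (SD, n = 2). Irak3, an inhibitor of toll-like receptor signaling, was at 3.23 ± 0.507 FPKM in 4-NP-treated cells and 0.638 ± 0.333 FPKM in control cells (SD, n = 2). Both were called higher but reached the filter only through the 4-NP group. Otud7b, a deubiquitinase, rose 1.79-fold. Pdlim2, which promotes the degradation of RelA protein, fell to 4.00 ± 2.02 FPKM in 4-NP-treated cells, against 33.3 ± 3.04 FPKM in control cells (SD, n = 2). Commd1, which also restrains RelA, fell to 0.737 of its control level. Without either 4-NP library the counts were 1 higher and 1 lower, and without control replicate 2 there was also 1 lower.

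Among genes listed as NF-κB targets, 22 of 31 listed genes were tested, and 12 were higher (54.5%, against 24.7% over all tested genes) and 5 were lower (22.7%, against 23.1%, so that the share lower was near that of all tested genes), with a median log2 change of 0.80. Leaving out any library left 10 or 11 higher and 4 or 5 lower. Lcn2, which encodes the iron-binding protein lipocalin, was at 947 ± 49.2 FPKM in 4-NP-treated cells and 55.4 ± 10.5 FPKM in control cells (SD, n = 2). It rose 17.1-fold. Cxcl1, a neutrophil chemokine, rose 20.9-fold. Sod2, a superoxide dismutase of mitochondria that limits oxidative stress, rose 3.36-fold. Sdc4, a cell surface proteoglycan, fell to 5.94 ± 0.509 FPKM in 4-NP-treated cells, against 69.4 ± 3.95 FPKM in control cells (SD, n = 2). Gadd45b, a growth arrest gene, fell to 0.212 of its control level, Irf1, an interferon response factor, to 0.307 and Olr1, a scavenger receptor, to 0.366. Plau, the urokinase gene, was listed at 0 in both 4-NP libraries, against 4.53 and 5.99 FPKM in control cells. Whether these zeros are failed estimates was not tested. Plau reached the filter only through the controls. Likewise Cxcl2 and Cxcl10, among the 12 called higher, reached it only through the 4-NP group. Many of these genes answer to other factors too, and the activity of NF-κB was not measured. In their promoters the consensus κB motif occurred in 10 of 27, and in those of the kinases and adaptors in 2 of 22.

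**Figure D5:**
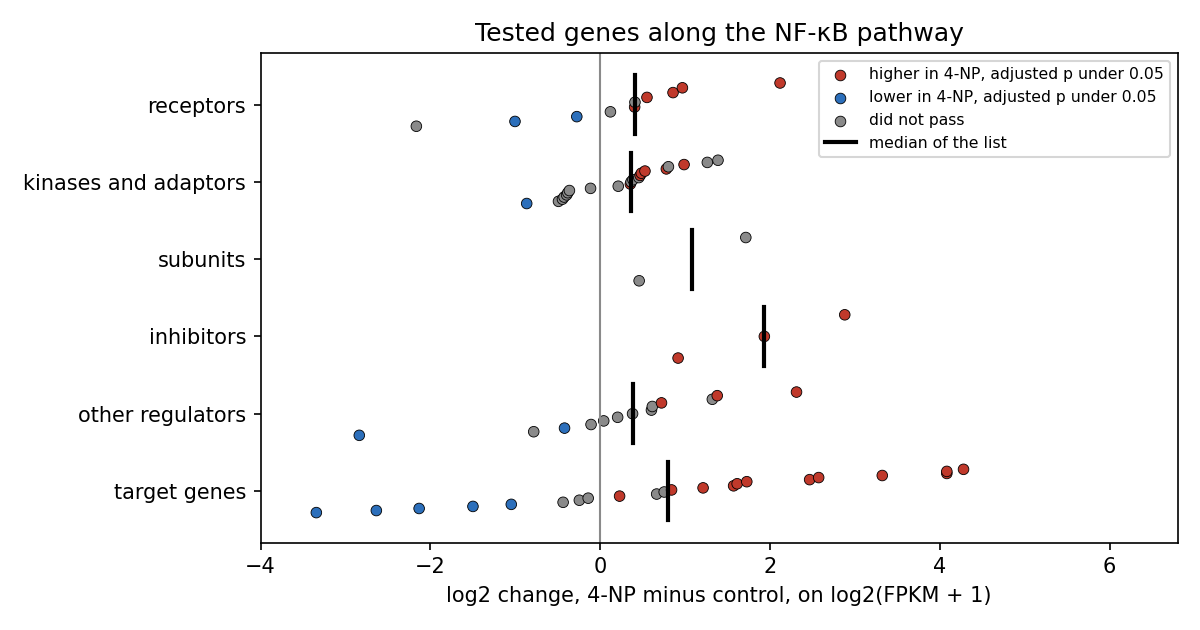
Log2 change on log2(FPKM + 1), 4-NP minus control, of each tested gene of 6 groups along the NF-κB pathway, in red where higher, in blue where lower and in grey where the gene did not pass, with a black line at the median of each group. All 3 tested inhibitors are red, at 0.92 to 2.88, and target genes run from -3.34 to 4.28.

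Markers of cell types moved in the same libraries. Of 9 tested Sertoli markers 8 fell (88.9%, against 23.1% over all tested genes) and 1 rose (11.1%, against 24.7%). Of them Wt1, Cldn11 and Dhh reached the filter only through the controls, so the filter itself favoured their fall and raised this share. The others that fell, Inha, Clu, Tf, Krt18 and Vim, had a mean above 1 FPKM in both groups. The 13 listed markers summed to 1441 and 1461 FPKM in 4-NP-treated cells and to 2198 and 2388 FPKM in control cells. Vim (427 and 1669 FPKM, 4-NP and control means) and Ctsl, which rose (967 and 419 FPKM), made up most of these sums. Peritubular myoid cells form the contractile wall of the tubules. Their markers summed to 660 and 648 FPKM in 4-NP-treated cells, against 7893 and 7979 FPKM in control cells. All 9 fell (100%, against 23.1% over all tested genes), where Mylk reached the filter only through the controls. Macrophages use NF-κB strongly, and their 8 listed markers summed to 1.38 and 1.50 FPKM in 4-NP-treated cells and to 9.70 and 10.2 FPKM in control cells. Of them only Cd68 had a higher mean in 4-NP-treated cells, at 0.552 and 0.812 FPKM, against 0.0888 and 0.301 FPKM in control cells. The leukocyte gene Ptprc was at most 0.066 FPKM. Endothelial markers summed to 0.658 and 0.501 FPKM in 4-NP-treated cells, against 10.8 and 7.78 FPKM in control cells. The macrophage and endothelial markers that were tested reached the filter only through the controls, so no count of changed ones is given. Germ cell markers summed to 72.3 and 97.2 FPKM in 4-NP-treated cells and to 39.4 and 25.4 FPKM in control cells. This sum rose through Uchl1, at 68.0 and 91.7 FPKM in 4-NP-treated cells, against 17.2 and 3.16 FPKM in control cells. Among the tested germ cell markers, Uchl1 was called higher, and Id4 was called lower, at 0.450 of its control level. Dazl, Kit and Tex101 reached the filter only through the controls, so no count of changed germ cell markers is given. The 5 listed Leydig cell markers summed to 829 and 803 FPKM in 4-NP-treated cells, against 423 and 420 FPKM in control cells. Star, at 801 FPKM in 4-NP-treated cells and 307 FPKM in control cells (means), made up most of these sums. Of 3 tested Leydig cell markers 2 fell (66.7%, against 23.1% over all tested genes) and 1, Star, rose (33.3%, against 24.7%). The part of these cells in the values of the NF-κB genes was not tested.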

How the data were processed

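Ribosomal RNA-depleted total RNA was sequenced in 2 4-NP and 2 control libraries, grouped by sample titles. Table columns named NP were matched to the treated samples. HISAT2 and DESeq2 are in the processing notes of the submitters, and FastQC and edgeR in the methods of the study. No version, build or assembler is given in the sources used here. The authors deposited mRNA values as FPKM per transcript. For circRNAs the authors deposited junction read counts and a coverage signal scaled to mapped reads (SRPBM), used here only to compute the mapped reads per library. Columns of fold changes, p-values and q-values in the deposited tables and the lncRNA values were not used.

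Of 17290 rows, 1545 repeated an earlier transcript name and were dropped, and FPKM was summed per gene name. Each listed gene of the group had 1 transcript. FPKM times length and depth gave whole reads (within 0.05) for 5.59 to 10.7% of low transcripts, so reads were not recovered and no count test was run. Genes below a mean of 1 FPKM were left out. For the others, log2(FPKM + 1) was compared between groups by limma (version 3.58.1, R 4.3.3) with a mean-variance trend, two-sided, with Benjamini-Hochberg adjustment over all 8012 genes. This scale understates the change of low genes, while folds are ratios of mean FPKM. The smallest p of an exact permutation test of 2 against 2 libraries is 0.333, and no such test was made. The fit was also run on simulated data as a check of the code, which does not show how it performs on these libraries. The genes of the group and the lists were chosen with earlier results of these data known. Named genes were the whole group, the 4 of each list with the smallest p, and those behind small counts, of which a selection is printed. Alternatives were the pseudocount, filter, scaling, transcripts, variance model, call rule, replicate block, κB motif and leaving out each library. Sequences are from RefSeq (GRCr8), matched by symbol, and Python 3.11.15 was used for the other steps.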

Additional observations from a re-analysis of the deposited data

How the results depend on the processing

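Nfkbia and Nfkbib passed under every alternative run, and no result for a gene of the group that was tested changed direction. Leaving out a library gave log2 changes of 1.89 to 1.97 for Nfkbia, 2.78 to 2.98 for Nfkbib, 0.88 to 0.96 for Nfkbie, 0.39 to 0.53 for Rela and 0.76 to 2.67 for Nfkb2, with 2 to 4 genes of the group called higher. The lone library of a group was then assumed to vary like the others. Nfkbie, at 0.92 on log2(FPKM + 1), did not meet the study's rule of an unadjusted p under 0.05 with a log2 change beyond 1. Its ratio of mean FPKM was 2.13, and with a pseudocount of 0.1 its log2 change was 1.07. Rela passed with a pseudocount of 0.1 (0.51), a filter of 5 FPKM (0.46), scaling by the median ratio (0.48) and no mean-variance trend (0.46). Over all genes, 1981 were higher and 1850 lower. The study's rule gave 914 and 1218, and the filter of 5 FPKM gave 1158 lower (with 3 NF-κB targets lower). The study's rule left 0 of 6 kinases and adaptors and 1 of 5 receptors higher, and the filter of 5 FPKM left 2 receptors and 1 other regulator higher. Over all genes, leaving out a library gave 1134 to 1518 higher. It also gave 1270 to 1356 lower. Scaling to equal totals gave a ratio of summed inhibitors of 4.07, against 4.31. The shorter κB motif matched 2 promoters, against 7. Across the tested genes, the gaps between replicates 1 and 2 were not correlated between the groups (correlation -0.01). This cannot show whether samples were paired by culture or batch, which is not in the labels. With the replicate number as a block, 3 genes of the group were called, as without it. Over all genes, 1684 were then higher and 1532 lower. Under the block 3 receptors were higher and 1 lower, and 1 other regulator was lower. With 2 libraries in each group, small differences and genes under 1 FPKM could not be judged.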
